A study of Mus musculus with 36 samples.

Results

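LIN28 and let-7 axis genes are described here as 8 mouse genes taken by name as known members of this axis, a rule that uses no measured value although earlier results of these data were known: Lin28a, Lin28b, Hmga1, Hmga2, Igf2bp1, Igf2bp2, Igf2bp3 and Trim71. They were 8 of 25239 genes in the count table of P-bodies and cytoplasm, 8 of 25229 in that of polysomes and 8 of 48440 in that of Ago2 KO cells, and all 8 had reads in each table. The study sequenced RNA from 36 mouse samples in 16 groups. P-bodies were sorted as GFP-LSM14A particles by fluorescence-activated particle sorting and set against cytoplasm of the same kind of cell, with 2 libraries in each group. Cytoplasm here means the resuspended pellet of the lysate after removal of nuclei, sampled before sorting, and not the supernatant. It therefore still held P-bodies. The cells were naive ES cells, primed ES cells, MEFs, and reprogrammable MEFs harvested on day 3, either controls or cells with Nudt21 knocked down. In a further experiment polysome-bound and total RNA of ES cells with or without acute degradation of DDX6 were sequenced, with 3 libraries in each group. Polysome-bound RNA here means the pool of ribosome-containing fractions, and total RNA was taken from the same lysates.

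The ES cells were of the v6.5 line, from an F1 cross of C57BL/6 and 129S4Sv/Jae mice. Naive cells were grown with LIF and inhibitors of MEK and GSK3, and primed cells with activin A and bFGF. The reporter GFP-LSM14A was delivered by a lentivirus under an EF1a promoter, so P-body and cytoplasm libraries came from cells that carried this transgene. Reprogrammable MEFs carried a doxycycline-inducible OKSM cassette at Col1a1, M2-rtTA at Rosa26 and an EGFP reporter under Pou5f1 elements. The day 3 cells had been induced with doxycycline for 3 days in medium with LIF and ascorbic acid, whereas the MEFs were uninduced. Nudt21 was silenced with an shRNA. The Ago2 KO line was made in v6.5 cells with paired guides and grown from single sorted cells. In the DDX6 degron line FKBP12(F36V) was fused to the end of endogenous Ddx6 and clones were expanded from single cells. This line was made in ES cells that already carried GFP-LSM14A. It was treated with dTAG-13, and its control was the untreated line. Both were given cycloheximide before harvest.

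LIN28A and LIN28B are RNA-binding proteins that bind the loop of let-7 precursors and block their maturation, while mature let-7 binds 3′ UTRs and lowers the output of its target mRNAs, those of the LIN28 genes included. HMGA1 and HMGA2 are AT-hook chromatin proteins, IGF2BP1, IGF2BP2 and IGF2BP3 bind and stabilize mRNAs, and TRIM71 (LIN41) is an RNA-binding repressor. Several of these genes are known for high expression in early embryos and for repression by let-7 as cells differentiate. P-bodies are cytoplasmic RNA-protein granules that hold untranslated mRNAs, and DDX6 is an RNA helicase needed for them.

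The let-7 family shares the seed that pairs with these genes, so its mature sequences are shown first. RefSeq listed 11 different mature sequences of the 5′ arm on GRCm38.p6. The seed, bases 2 to 8 in capitals, was GAGGUAG in 10 of them and GAGGUAU in 1, let-7j. The first member shown, let-7a, was located on the minus strand at chr13:48538239-48538260.
let-7a-5p: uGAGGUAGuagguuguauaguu
let-7b-5p: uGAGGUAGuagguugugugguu
let-7c-5p: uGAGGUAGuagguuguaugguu
let-7d-5p: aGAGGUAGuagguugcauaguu
let-7e-5p: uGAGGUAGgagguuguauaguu
let-7f-5p: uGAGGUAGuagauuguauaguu
let-7g-5p: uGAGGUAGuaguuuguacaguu
let-7i-5p: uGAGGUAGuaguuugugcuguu
miR-98-5p: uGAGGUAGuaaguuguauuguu
let-7j: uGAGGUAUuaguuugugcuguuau
The tetramer GGAG, known as the element that LIN28 proteins bind, stood between the arms of 9 of 12 let-7 hairpins. Mature miRNAs were not measured in these libraries.

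All 8 genes held a match to the let-7 seed in the annotated 3′ UTR. The search covered the longest complete protein-coding transcript of each gene, on the sense strand, for CTACCTCA (8mer), CTACCTC without the final A (7mer-m8) and TACCTCA without the first C (7mer-A1), each position being counted once. Of 20863 3′ UTRs, 14.6% held any of the 3 and 2.99% held an 8mer. Hmga2 had 7 matches in 3014 bases, which 0.0589% of UTRs of similar length (0.5 to 2 times) reached. Trim71 had 6 in 5512 bases (0.157% of such UTRs), Lin28b had 5 in 4445 bases (0.29%) and Igf2bp1 had 5 in 6337 bases (0.412%). Lin28a had 2 in 2775 bases (4.92%) and Igf2bp2 2 in 1784 bases (2.72%). The single matches of Igf2bp3 and Hmga1 were common, since 21.8% and 14.4% of UTRs of similar length had at least as many. A match is a description of letters and not a measured binding site. The genes were taken as known members of this axis, so their match counts may follow in part from that choice. One site of each gene is shown, 5′ to 3′ on the transcript strand with the match in capitals. All lay within a 3′ UTR exon, on the minus strand of GRCm38 except that of Hmga1.
Lin28a, chr4:134005189-134005218: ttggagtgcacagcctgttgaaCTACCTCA
Lin28b, chr10:45381022-45381051: tcccttcacccgggcgggaagtCTACCTCA
Hmga1, chr17:27563270-27563299: catcttctcctctgttcacaaaCTACCTCt
Hmga2, chr10:120364224-120364253: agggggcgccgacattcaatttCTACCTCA
Igf2bp1, chr11:95961778-95961807: aggcagtgctgtgcgaagtaaaCTACCTCA
Igf2bp2, chr16:22059473-22059502: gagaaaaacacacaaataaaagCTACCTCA
Igf2bp3, chr6:49086787-49086816: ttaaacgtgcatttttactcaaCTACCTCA
Trim71, chr9:114512472-114512501: aaagtacaacattgcctaagtcCTACCTCA
Hmga1 thus had a 7mer-m8 only, while the window of each other gene ended in an 8mer. Trim71 held 4 8mers, Igf2bp1 3, Lin28a 2, and Lin28b, Hmga2, Igf2bp2 and Igf2bp3 1 each.

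**Figure D1:**
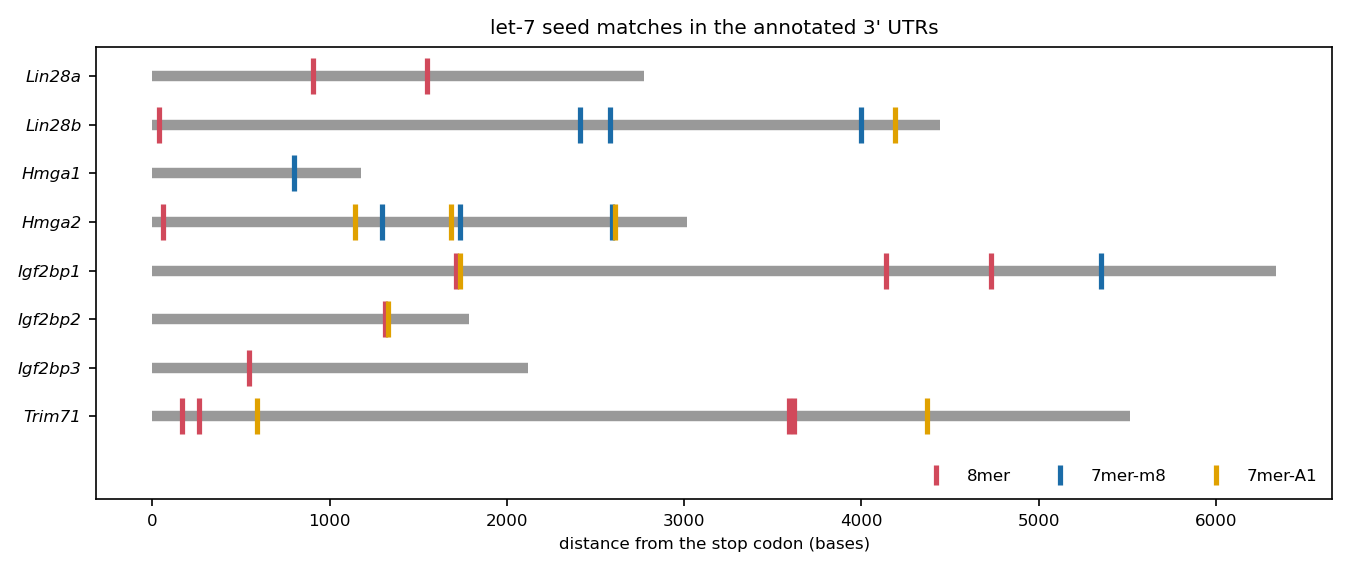
let-7 seed matches (coloured ticks, by kind of match) along the annotated 3′ UTR of each gene (grey bars), with the distance from the stop codon in bases on the x axis. Hmga2 and Trim71 carry 7 and 6 matches, and Hmga1 and Igf2bp3 carry 1 each.

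Gene positions bear on how the reads can be read. Exons of Igf2bp3 (chr6:49085223-49214957) shared 1529 bases with Malsu1 on the opposite strand. The P-body counts were not stated to use strand, so reads of these genes cannot be told apart there. Hmga1 (chr17:27556497-27563674) has an intronless copy, Hmga1b, on chromosome 11 whose coding sequence was identical over 324 of 324 bases. Its values are uncertain for that reason, and summing the pair changed none of the calls below. The opposite-strand overlaps of the other genes were at most 234 bases, and 92 bases of Igf2bp1 hold the miRNA gene Mir3063.

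The P-body and cytoplasm libraries held 6769727 to 31185799 reads, the polysome and total libraries 13308776 to 29362187 and the Ago2 KO libraries 15624342 to 17486206. Replicate pairs correlated at Spearman 0.902 to 0.997, and the cytoplasm of Ago2 KO cells (0.902), that of naive cells (0.955) and day 3 control P-bodies (0.959) stood apart. Nudt21 stood at 4.87 to 5.94 CPM in its knockdown against 88.9 to 110 in the day 3 controls. Ago2 stood at 2.54 to 4.83 CPM in its knockout. The degron acts on DDX6 protein, so Ddx6 RNA (198 to 211 CPM in treated total RNA, 220 to 253 in control) checks nothing. The 7 naive markers summed to 2235 to 2362 CPM in naive cells and 224 to 279 in primed cells. The 5 primed markers summed to 514.5 to 600 CPM in primed cytoplasm and 368 to 377 CPM in primed P-bodies. In naive cells they summed to 43.8 to 89.5 CPM. Dnmt3b made up most of the primed cytoplasm sum, at 425 CPM on average. The 7 fibroblast markers summed to 11738 to 41928 CPM in MEFs. Each pluripotent or fibroblast label thus carried its markers. The 6 epithelial markers differed between the naive cytoplasm libraries (1058 and 2140 CPM) and between the MEF P-body libraries (11.03 and 99.3), and Sftpc and Scgb1a1, markers of lung epithelium, were at 0 in the naive cells and in MEF cytoplasm but averaged 24.3 and 25.9 CPM in MEF P-bodies. Krt8, Krt18 and Cdh1 averaged 0.0435, 4.71 and 0.0435 CPM in MEF P-bodies against 1.93, 7.41 and 0.0941 CPM in MEF cytoplasm. Epcam averaged 0.257 CPM against 0.133 CPM. The part of those differences in the results below was not tested.

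P-body enrichment differed between cell states for some of the 8 genes. Enrichment is the log2 fold change of P-body over cytoplasm reads, tested with edgeR's quasi-likelihood method at a Benjamini-Hochberg adjusted p under 0.05 over all genes. In naive cells 5 of 8 genes were higher in P-bodies and 0 lower, against 22.6% of all genes higher and 15.4% lower (38% in all). In primed cells 4 of 8 were higher and 2 lower (26.5% and 24.2% of all genes, 50.7% called), and in MEFs 2 of 7 tested were higher and 2 lower (26.6% and 28.7%, 55.3% called). The lung epithelial markers Sftpc and Scgb1a1 were found in MEF P-bodies, whereas Krt8, Krt18 and Cdh1 were lower there than in cytoplasm. All 6 epithelial markers summed to 11.03 and 99.3 CPM in the MEF P-body libraries. The part of these markers in the MEF values was not tested. Without MEF P-body replicate 1 or 2, 5 of 7 genes passed, and without MEF cytoplasm replicate 1 or 2, 2 did. In day 3 control cells 0 of 6 passed in edgeR (0.196% and 0.45%, 0.646% called), 3 had an unadjusted p under 0.05, and DESeq2 called 2. In day 3 Nudt21 knockdown cells 0 of 7 were higher and 4 lower (9.04% and 12.8% of all genes, 21.9% called). The median enrichment of the 8 genes was 0.86 in naive cells, where that of all genes was -0.06, and 0.26 in primed cells, where that of all genes was 0.00063.

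**Figure D2:**
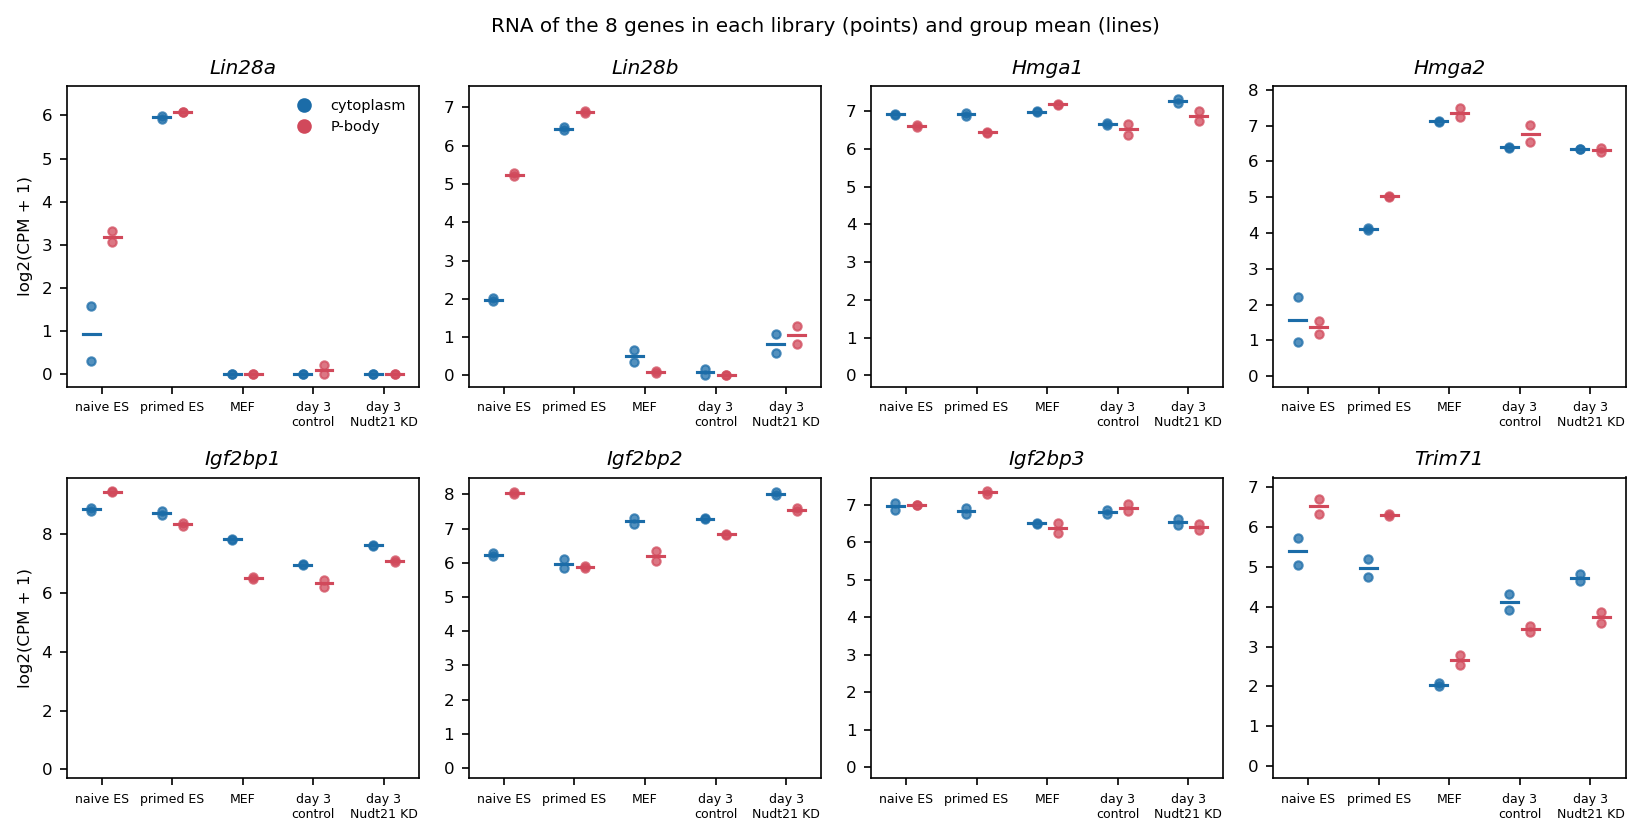
RNA level of each gene, as log2(CPM + 1), in each P-body (red) and cytoplasm (blue) library of 5 cell states, with a line at the group mean. Lin28b lies between 35.7 and 38.1 CPM in naive P-bodies and between 2.82 and 3.07 in naive cytoplasm, whereas Igf2bp3 is close in both fractions.

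Lin28b, which encodes one of the paired let-7 precursor-binding proteins, showed the highest naive enrichment of the 8 genes. It stood at 38.1 and 35.7 CPM in naive P-bodies and at 2.82 and 3.07 CPM in naive cytoplasm, with no overlap. The log2 enrichment was 3.64 ± 0.17 (SE, adjusted p = 0.000414). In primed cells Lin28b was more abundant in both fractions, at 120 and 114 CPM in P-bodies and 88.1 and 84.6 CPM in cytoplasm, and its enrichment was smaller (0.42 ± 0.07, adjusted p = 0.000317). That call was lost when all groups shared one fit (adjusted p = 0.168). The difference in enrichment between naive and primed cells was 3.08 ± 0.16 (adjusted p = 6.9e-05). MEFs held few Lin28b reads, 3 in P-bodies and 22 in cytoplasm, which gives a cytoplasm to P-body ratio of 6.39 with an exact counting interval of 1.92 to 33.3.

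Lin28a, whose protein recruits uridyltransferases to pre-let-7, was sparse in the naive P-body and cytoplasm libraries. It stood at 8.9 CPM (84 reads) and 7.38 CPM (82 reads) in naive P-bodies and at 1.96 CPM (25 reads) and 0.23 CPM (3 reads) in naive cytoplasm. The fractions did not overlap and the enrichment was 2.89 ± 0.76 (adjusted p = 0.0334). It rests on those cytoplasm libraries: it was 5.07 without replicate 1 and 2.06 without replicate 2, and the adjusted p rose to 0.127 and 0.0987 without P-body replicate 1 or 2. In primed cells Lin28a was at 66.6 CPM in both P-body libraries and at 59.5 and 62.5 CPM in cytoplasm, an enrichment of 0.10 ± 0.08 that did not pass (adjusted p = 0.3). The naive minus primed difference in enrichment was 2.64 ± 0.55 (adjusted p = 0.00817), and 4.82 without naive cytoplasm replicate 1. Lin28a had at most 3 reads in any library of MEFs or of day 3 cells. In the polysome experiment, prepared apart, untreated naive ES cells held Lin28a at 55.6 CPM on average in total RNA. The low naive level thus did not hold in that experiment. In Ago2 KO ES cells, from a separately made table, Lin28a averaged 1.02 CPM in P-bodies and 2.07 CPM in cytoplasm.

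Hmga1, a chromatin protein of broad expression, had group means of 85.8 to 144 CPM in P-bodies and 99.9 to 152 CPM in cytoplasm. In naive P-bodies it was found at 94 and 98.5 CPM, below the 120 and 118 CPM of naive cytoplasm, which did not pass (-0.31 ± 0.10, adjusted p = 0.0587). It passed with edgeR's expression filter (0.0451), in one fit of all groups (0.0494) and without naive cytoplasm replicate 1 (7.3e-05) or 2 (0.000169). In primed cells Hmga1 was lower in P-bodies, at 86.4 and 85.1 CPM against 115 and 123 CPM (-0.49 ± 0.07, adjusted p = 8.2e-05). In MEFs it was higher in P-bodies, at 142 and 146 CPM against 124 and 126 CPM (0.25 ± 0.09, adjusted p = 0.0388). The MEF call was lost without cytoplasm replicate 1 or 2 (adjusted p = 0.228 and 0.176), with no filter on low counts (0.0588) and in one fit of all groups (0.163). The naive minus MEF difference in enrichment was -0.74 ± 0.14 (adjusted p = 0.00168). It was -0.49 with no filter and -0.49 without MEF P-body replicate 2, and its adjusted p was 0.0717 and 0.0572 without MEF cytoplasm replicate 1 or 2.

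Hmga2, a let-7 target with the most seed matches here, was most abundant in MEFs, where the LIN28 genes had few reads. It was lowest in naive cells, at 1.91 and 1.26 CPM in P-bodies and 0.942 and 3.61 CPM in cytoplasm, where the fractions overlapped and no enrichment was called (-0.53 ± 0.70, adjusted p = 0.583). In primed cells Hmga2 stood at 31.3 and 31.8 CPM in P-bodies against 15.8 and 16.5 CPM in cytoplasm, an enrichment of 0.94 ± 0.11 (adjusted p = 1.9e-05). In MEF P-bodies it reached 150 and 178 CPM, above the 138 and 139 CPM of MEF cytoplasm (0.29 ± 0.11, adjusted p = 0.0521). That value passed in DESeq2 (0.032), with its size factors (0.0435), with the expression filter (0.0284) and without MEF P-body replicate 1 (0.000295). The naive minus primed difference for Hmga2 did not pass (-1.63 ± 0.62, adjusted p = 0.09), but it passed in DESeq2 (0.0484), in one fit of all groups (0.0394) and without naive cytoplasm replicate 1 (2.9e-05), where it was -2.29.

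Igf2bp1, an mRNA-stabilizing protein of early development, changed direction between cell states. It stood at 703 and 689 CPM in naive P-bodies against 474 and 443 CPM in naive cytoplasm (0.60 ± 0.10, adjusted p = 0.00659). In primed cells it was lower in P-bodies, at 308 and 332 CPM against 396 and 440 CPM (-0.41 ± 0.06, adjusted p = 0.00011). In MEFs Igf2bp1 was lower still in P-bodies, at 86.9 and 93.1 CPM against 224 and 230 CPM (-1.29 ± 0.09, adjusted p = 7.6e-06). The difference in enrichment was 0.87 ± 0.12 for naive minus primed (adjusted p = 0.00117) and 1.70 ± 0.14 for naive minus MEF (adjusted p = 1.7e-05). The naive call was lost without P-body replicate 1 (adjusted p = 0.15) or 2 (0.134), each of which leaves 1 P-body library.

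Igf2bp2, its paralogue, showed the same order of states with a larger naive value. It stood at 259 and 270 CPM in naive P-bodies against 72.1 and 76.9 CPM in naive cytoplasm, a log2 enrichment of 1.83 ± 0.10 (adjusted p = 0.000414). In primed cells the fractions overlapped, at 59.1 and 56.7 CPM in P-bodies and 56.2 and 67.5 CPM in cytoplasm (-0.12 ± 0.10, adjusted p = 0.33). In MEFs Igf2bp2 was lower in P-bodies, at 64.9 and 80.4 CPM against 158 and 139 CPM (-0.99 ± 0.13, adjusted p = 0.000171). The difference in enrichment was 1.80 ± 0.15 for naive minus primed (adjusted p = 0.000185) and 2.62 ± 0.19 for naive minus MEF (adjusted p = 1.2e-05). Both Igf2bp2 differences and its naive and MEF calls were kept under all alternatives run, those leaving out 1 library included.

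Igf2bp3, the third of these paralogues, did not share that order. It stood at 126 and 127 CPM in naive P-bodies, between the naive cytoplasm values of 132 and 115 CPM (0.04 ± 0.11, adjusted p = 0.825). In primed cells it was higher in P-bodies, at 165 and 156 CPM against 107 and 119 CPM (0.48 ± 0.07, adjusted p = 0.000114). The naive minus primed difference was -0.59 ± 0.14 (adjusted p = 0.0153). It was lost in one fit of all groups (0.069), without either naive P-body replicate (0.0772 and 0.0619), without either primed P-body replicate (0.135 and 0.086) and without primed cytoplasm replicate 1 (0.122). In MEFs Igf2bp3 overlapped between fractions, at 74.5 and 91.2 CPM in P-bodies and 91.1 and 88.4 CPM in cytoplasm (-0.07 ± 0.12, adjusted p = 0.655), and it passed as lower without MEF P-body replicate 2 (-0.24, adjusted p = 0.026).

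Trim71, the mouse LIN41, was higher in P-bodies in naive cells, primed cells and MEFs. It stood at 78.8 and 103 CPM in naive P-bodies against 51.9 and 31.9 CPM in naive cytoplasm (1.12 ± 0.26, adjusted p = 0.0243). In primed cells it was at 76.2 and 78.3 CPM against 25.7 and 35.7 CPM (1.30 ± 0.12, adjusted p = 1.9e-06). In MEFs Trim71 was scarce, at 4.82 and 5.92 CPM against 3 and 3.24 CPM (0.83 ± 0.24, adjusted p = 0.017). The naive call was lost without P-body replicate 1 (adjusted p = 0.0508) or 2 (0.13), and the MEF call without cytoplasm replicate 1 (0.145) or 2 (0.1). The naive minus primed difference was -0.33 ± 0.33 (adjusted p = 0.519) and the naive minus MEF difference 0.10 ± 0.36 (adjusted p = 0.898). The former passed only without naive cytoplasm replicate 2 among the alternatives run, where it was -0.62 (adjusted p = 0.0196).

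Across cell states, 4 of 8 genes had a higher enrichment in naive than in primed cells (Lin28a, Lin28b, Igf2bp1, Igf2bp2) and 1 a lower one (Igf2bp3), against 13.9% of all genes higher and 11.4% lower (25.3% called). Against MEFs 3 of 8 were higher in naive cells (Lin28b, Igf2bp1, Igf2bp2) and 1 lower (Hmga1), against 21.5% and 19.8% of all genes (41.3% called). The fitted naive minus MEF difference of Lin28b was 5.97 ± 0.66 (adjusted p = 8.4e-05), and it rests on 3 reads in MEF P-bodies. The naive comparisons share the naive libraries, so they are not independent of each other.

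**Figure D3:**
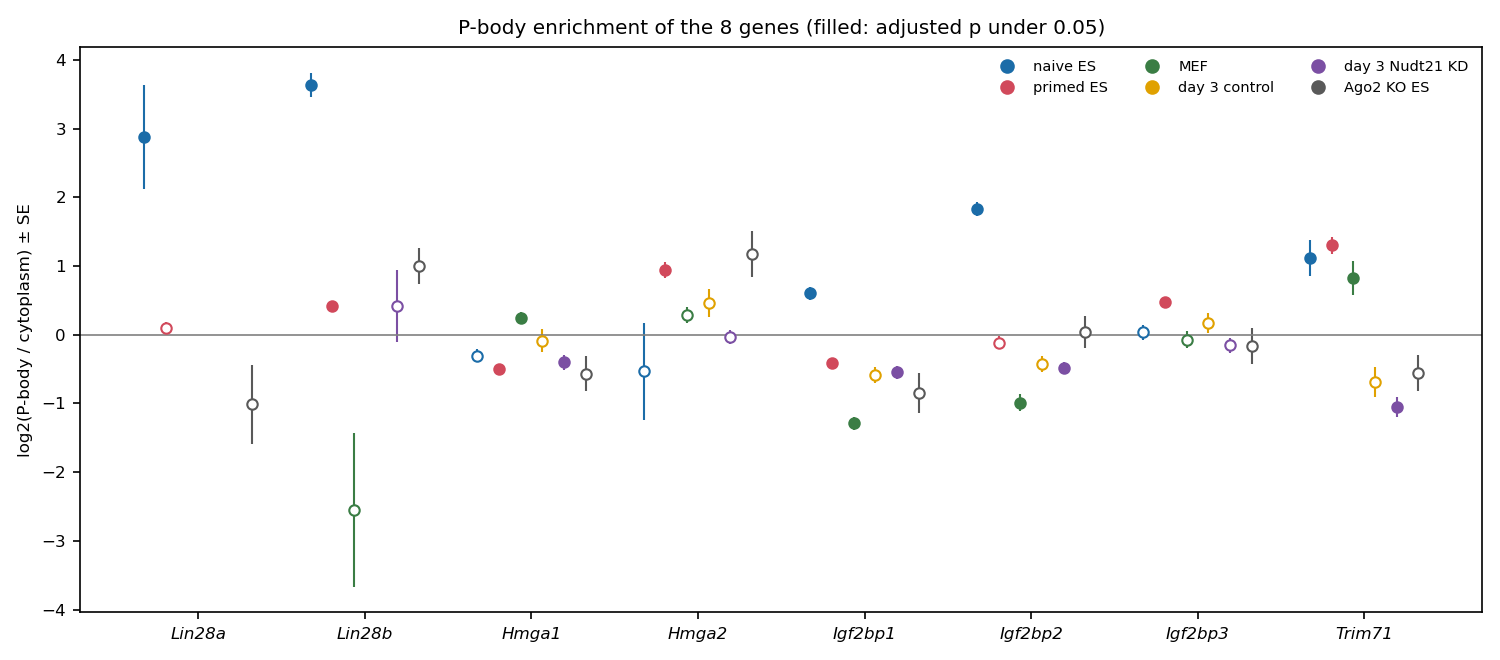
P-body enrichment of each gene, as the log2 ratio of P-body to cytoplasm with its standard error, in 6 kinds of cells (colours), filled where the adjusted p was under 0.05. The naive values of Lin28a, Lin28b and Igf2bp2 (2.89, 3.64 and 1.83) lie above those of the other cells, and Igf2bp1 runs from 0.60 in naive cells to -1.29 in MEFs. Ago2 KO values come from a separately made table.

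In the cytoplasm the genes differed in the order of cell states. For Lin28b the order was primed, naive, Nudt21 knockdown, MEF and day 3 control, and only Nudt21 knockdown and MEF overlapped. Lin28a was at 61 CPM on average in primed cytoplasm and 1.1 CPM in naive cytoplasm. Total RNA of untreated naive ES cells in the polysome experiment, prepared apart, held it at 55.6 CPM. For Hmga2 the order was MEF, day 3 control, Nudt21 knockdown, primed and naive, with no neighbours overlapping. Igf2bp1 was highest in naive and lowest in day 3 control cytoplasm, whereas Igf2bp2 was highest in Nudt21 knockdown and lowest in primed cytoplasm. For Trim71 the naive, primed and Nudt21 knockdown values overlapped with their neighbours, and MEFs were lowest. In Hmga1 and Igf2bp3 the group means stayed within 99.9 to 152 CPM and 89.8 to 124 CPM. In such bulk samples fewer cells of a type and less RNA per cell cannot be told apart.

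Tested between cell states, 3 of 8 genes were lower in naive than in primed cytoplasm and 0 higher (21.6% and 22.1% of all genes, 43.8% called). They were Lin28a (-5.81 ± 0.59, adjusted p = 0.00116), Lin28b (-4.88 ± 0.17, adjusted p = 0.000107) and Hmga2 (-2.83 ± 0.54, adjusted p = 0.00912), the last being lost without primed cytoplasm replicate 1 (0.0614) or 2 (0.0573). The other 5 ran from -0.01 for Hmga1 to 0.43 for Trim71 and did not pass, and Trim71 passed without naive cytoplasm replicate 2 (0.72, adjusted p = 0.00083). Against MEFs 5 of 8 were higher in naive cytoplasm and 2 lower (36% and 35.9% of all genes, 71.8% called). Trim71 was higher by 3.74 ± 0.30, Igf2bp1 by 1.02 ± 0.10 and Igf2bp3 by 0.46 ± 0.12 (adjusted p = 0.000248, 0.000571 and 0.0159), and Hmga2 (-5.92 ± 0.46) and Igf2bp2 (-0.996 ± 0.12) were lower (adjusted p = 0.000241 and 0.00096). Igf2bp3 no longer passed without MEF cytoplasm replicate 1 (0.122) or 2 (0.148), and Hmga1 did not pass (-0.07 ± 0.10). Lin28b had 76 reads in naive and 22 in MEF cytoplasm, a ratio of 7.09 (exact counting interval 4.36 to 12). Lin28a had 28 reads against 0 rounded reads in MEFs, which makes it at least 19.1-fold higher at a floor of 3 reads over the group. Replicate 1 held 25 of those reads, and the 3 of replicate 2 are at the floor and give no bound. Its call (adjusted p = 0.0267) was lost with no filter (0.0503) and without MEF cytoplasm replicate 1 (0.0581) or 2 (0.0561).

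On day 3 of reprogramming 6 of 7 genes tested passed in the cytoplasm against MEFs, where 69.3% of all genes were called. Trim71 rose from 3 and 3.24 CPM to 14.1 and 18.9 CPM (2.46 ± 0.18, adjusted p = 6.4e-09), and Igf2bp3 rose by 0.37 ± 0.07 (adjusted p = 0.000157). Hmga1 (-0.26 ± 0.06), Hmga2 (-0.68 ± 0.06) and Igf2bp1 (-0.82 ± 0.06) fell (adjusted p = 0.00184, 1.1e-07 and 6.0e-09). In all 2 were higher and 4 lower (35.5% and 33.7% of all genes). Igf2bp2 stood at 156 and 155 CPM against 158 and 139 CPM and did not pass (0.13 ± 0.07, adjusted p = 0.113), though it did without MEF cytoplasm replicate 1 (0.0162). The fourth was Lin28b, with 3 reads on day 3 against 22 in MEFs, a ratio of MEF to day 3 of 7.34 (exact counting interval 2.21 to 38.3). Its call (adjusted p = 0.0358) was lost in DESeq2 (0.116), with no filter (0.0577), without MEF replicate 2 (0.202) and without day 3 control replicate 1 (0.166), and the fitted change was -6.47 without day 3 control replicate 2.

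In P-bodies of day 3 control cells Trim71 stood at 10.5 and 9.26 CPM, below its cytoplasm values of 14.1 and 18.9 CPM, but did not pass (-0.69 ± 0.22, adjusted p = 0.136). Igf2bp1 was at 86 and 73.4 CPM against 126 and 122 CPM (-0.59 ± 0.12, adjusted p = 0.0683), and Igf2bp2 at 112 and 113 CPM against 156 and 155 CPM (-0.42 ± 0.11, adjusted p = 0.11). All of these were below the cytoplasm in both libraries, which 2 libraries per group can give without a difference. Hmga1 (-0.09 ± 0.17), Hmga2 (0.46 ± 0.20) and Igf2bp3 (0.17 ± 0.14) did not pass either (adjusted p = 0.78, 0.223 and 0.501), and the LIN28 genes had too few reads to be tested. The 2 P-body libraries of this group stood apart, and without replicate 1 or 2 of them 5 and 4 of the 6 genes passed. Against MEFs, the difference in enrichment was lower for Trim71 (-1.48 ± 0.34, adjusted p = 0.0176) and higher for Igf2bp1 (0.74 ± 0.15, adjusted p = 0.0107), 1 of 7 genes in each direction against 5.13% and 9.59% of all genes (14.7% called). Without any 1 of the MEF or day 3 control cytoplasm libraries neither passed (adjusted p = 0.0534 to 0.123 for Trim71, 0.0623 to 0.116 for Igf2bp1). Without MEF P-body replicate 2 Trim71 was also lost (0.0607).

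Knockdown of Nudt21, a polyadenylation factor that selects distal poly(A) sites, went with higher cytoplasmic RNA of most of these genes against day 3 controls. Of 7 genes tested 5 were higher and 1 lower (24.6% and 25% of all genes, 49.6% called). Igf2bp2 stood at 252 and 267 CPM against 156 and 155 CPM (0.74 ± 0.07, adjusted p = 7.2e-08), and Igf2bp1 at 192.5 and 198 CPM against 126 and 122 CPM (0.66 ± 0.07, adjusted p = 3.0e-07). Trim71 (0.63 ± 0.13) and Hmga1 (0.61 ± 0.07) were higher by like amounts (adjusted p = 0.000884 and 1.9e-06). Lin28b had 45 reads against 3, a ratio of 15 with an exact counting interval of 4.83 to 75.6 (adjusted p = 0.00426), and its fitted change moved from 3.74 to 7.45 without day 3 control replicate 2. Igf2bp3 fell by 0.26 ± 0.08 (adjusted p = 0.0099), which was lost in one fit of all groups (0.117) and without replicate 1 of either group (0.0802 and 0.0888). Hmga2 stood at 80 and 81.2 CPM against 82.4 and 83.5 CPM (-0.04 ± 0.07, adjusted p = 0.706).

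In the P-bodies of knockdown cells Trim71 was lower than in cytoplasm, at 11 and 13.7 CPM against 26.9 and 23.7 CPM (-1.05 ± 0.15, adjusted p = 0.00129). Igf2bp1 (-0.55 ± 0.09), Igf2bp2 (-0.49 ± 0.09) and Hmga1 (-0.40 ± 0.11) were lower too (adjusted p = 0.00286, 0.00537 and 0.0261). Those 3 were lost without knockdown cytoplasm replicate 2 (adjusted p = 0.0526, 0.0962 and 0.239), and Hmga1 also without replicate 1 (0.0787). Lin28b (0.42 ± 0.52), Hmga2 (-0.03 ± 0.10) and Igf2bp3 (-0.155 ± 0.11) did not pass (adjusted p = 0.625, 0.849 and 0.34). Between knockdown and control cells the enrichment of 0 of 7 genes differed (0.0118% of all genes called). None had an unadjusted p under 0.05 in edgeR, and DESeq2 called 0. The one call among the alternatives run was that of Hmga2 without day 3 control P-body replicate 1 (-0.73, adjusted p = 0.00532). The knockdown and the MEF comparisons share the day 3 control libraries.

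In Ago2 KO ES cells 0 of 8 genes passed in edgeR (5.47% of all genes higher, 1.05% lower, 6.51% called), 3 had an unadjusted p under 0.05, and DESeq2 called 2. Lin28b stood at 14.6 and 16.2 CPM in P-bodies against 6.77 and 8.6 CPM in cytoplasm (1.01 ± 0.26, adjusted p = 0.0566), and Hmga2 at 17.4 and 23.8 CPM against 6.42 and 11.9 CPM (1.18 ± 0.34, adjusted p = 0.0735). Both genes were higher in P-bodies in both libraries, which 2 libraries per group can give without a difference. Igf2bp1 was at 138 and 158 CPM in P-bodies against 216 and 315 CPM in cytoplasm (-0.85 ± 0.30, adjusted p = 0.124). Igf2bp2 was at 32.7 and 39.5 CPM against 33.7 and 36.2 CPM (0.05 ± 0.23, adjusted p = 0.931), and Trim71 at 53.5 and 63.5 CPM against 72.5 and 100 CPM (-0.56 ± 0.26, adjusted p = 0.23). Lin28a was lower in both P-body libraries, at 1.14 and 0.902 CPM (18 and 16 reads) against 1.17 and 2.98 CPM (20 and 45 reads), and did not pass (-1.01 ± 0.57, adjusted p = 0.321). Hmga1 (-0.57 ± 0.26) and Igf2bp3 (-0.16 ± 0.26) did not pass (adjusted p = 0.214 and 0.757). The cytoplasm replicates of this group differed more than any others. Without cytoplasm replicate 1 there were 6 calls, without replicate 2 there were 2, and without either P-body replicate there were 0. The table was made apart from that of the other P-body libraries and its enrichments were not tested against theirs, so the naive values (2.89 for Lin28a, 3.64 for Lin28b, -0.31 for Hmga1, -0.53 for Hmga2, 0.60 for Igf2bp1, 1.83 for Igf2bp2, 0.04 for Igf2bp3 and 1.12 for Trim71) stand beside these with no test of the difference.

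Ribosome occupancy, the log2 ratio of polysome-bound to total RNA in naive ES cells of the degron line, ran from -0.94 for Igf2bp3 to 0.34 for Hmga1 in control cells. There 1 of 8 was higher on polysomes and 3 lower, against 18.8% and 24.1% of all genes (42.9% called). Igf2bp1 stood at 249, 246 and 225 CPM in polysomes and at 465, 437 and 429 CPM in total RNA (-0.89 ± 0.06, adjusted p = 5.2e-09). Igf2bp3 stood at 79.4, 74.3 and 78 CPM in polysomes and at 155, 156 and 133 CPM in total RNA (-0.94 ± 0.07, adjusted p = 1.4e-08). Igf2bp1 and Igf2bp3 thus stood lower in each polysome library than in any total library, whereas Igf2bp2 stood at 131, 126 and 125 CPM against 144, 138 and 126 CPM and did not pass (-0.10 ± 0.06, adjusted p = 0.254). Trim71 was lower (-0.32 ± 0.08, adjusted p = 0.00367) and Hmga1 higher (0.34 ± 0.07, adjusted p = 0.000985). Lin28a stood at 59.8, 60.9 and 58.7 CPM in polysomes and at 52.5, 52.9 and 61.6 CPM in total RNA, with overlap (0.10 ± 0.07, adjusted p = 0.302). Lin28b (0.22 ± 0.17) and Hmga2 (0.19 ± 0.16) did not pass either (adjusted p = 0.331 and 0.392).

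With DDX6 degraded, 3 of 8 genes were higher on polysomes and 4 lower (24% and 26.8% of all genes, 50.9% called). Lin28b stood at 6.55, 6.86 and 7.31 CPM in polysomes and at 4.57, 3.74 and 6.09 CPM in total RNA (0.51 ± 0.15, adjusted p = 0.00705), and was lost without degron total replicate 2 (0.34, adjusted p = 0.0565). Lin28a (0.15 ± 0.05) and Hmga1 (0.16 ± 0.04) were higher as well (adjusted p = 0.0175 and 0.00305), Lin28a being lost without degron polysome replicate 2 (0.0682) or total replicate 1 (0.0531). Hmga1 was at 0.25 when summed with Hmga1b. Igf2bp1 (-0.80 ± 0.04), Igf2bp3 (-0.98 ± 0.05), Trim71 (-0.18 ± 0.05) and Igf2bp2 (-0.13 ± 0.05) were lower (adjusted p = 1.4e-13, 1.9e-14, 0.00768 and 0.0226). Igf2bp2 was lost in one fit of all groups (0.0597), without degron polysome replicate 2 or 3 (0.113 each) and without total replicate 1 (0.0811).

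The difference in occupancy between degron and control cells passed for 0 of 8 genes and for 0% of 16345 genes. At an unadjusted p under 0.05 edgeR gave 844 genes, 1 of the 8 among them (Hmga1, -0.18 ± 0.08), and DESeq2 called 4 genes, none of the 8. The differences of the 8 genes ran from -0.18 for Hmga1 to 0.29 ± 0.24 for Lin28b (adjusted p = 0.879 and 0.897). In total RNA Igf2bp1 fell on DDX6 degradation, from 465, 437 and 429 CPM to 360, 373 and 374 CPM (-0.28 ± 0.05, adjusted p = 0.0136), as the only one of the 8 genes against 2.07% of all genes lower and 1.24% higher (3.31% called). This call was lost without degron total replicate 1 (0.132) or 2 (0.0767) and without control total replicate 1 (0.0728) or 2 (0.0581). Trim71 stood at 60.2, 59 and 62 CPM against 77.4, 70.4 and 66.1 CPM in control and did not pass (-0.25 ± 0.07, adjusted p = 0.0629). The groups did not overlap for Trim71, and it passed in DESeq2 (0.0208). The other 6 genes ran from -0.22 for Lin28a to 0.15 for Hmga1 and did not pass.

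**Figure D4:**
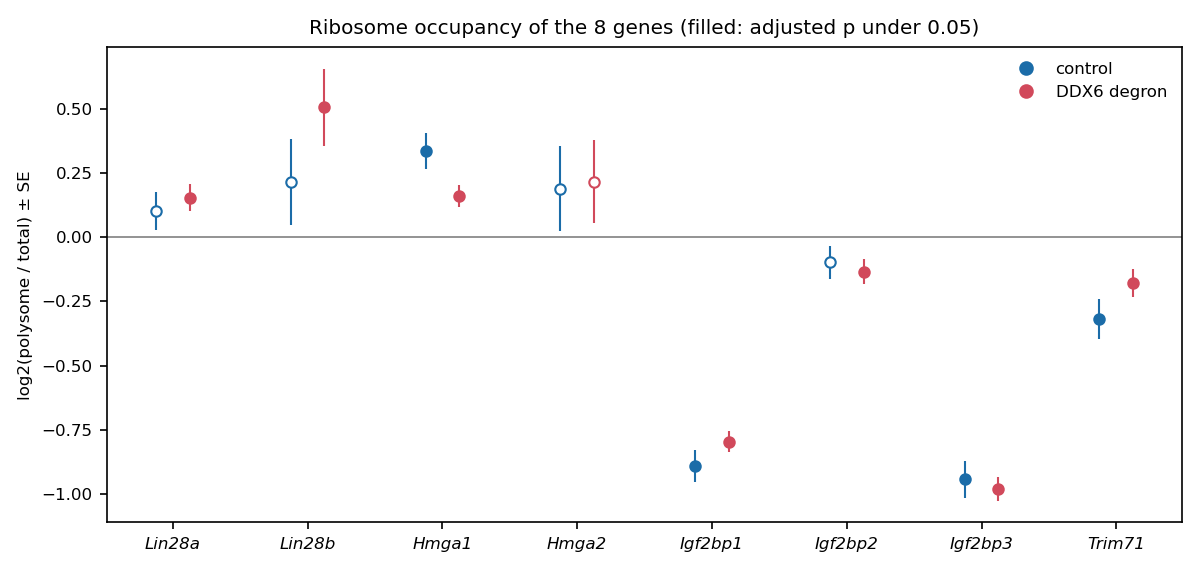
Ribosome occupancy of each gene, as the log2 ratio of polysome to total RNA with its standard error, in control (blue) and DDX6 degron (red) ES cells, filled where the adjusted p was under 0.05. Igf2bp1 and Igf2bp3 lie between -0.80 and -0.98 in both, and the other 6 genes lie between -0.32 and 0.51.

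The 19 genes of let-7 processing and of miRNA effector complexes were described as a list. In naive cells 7 were higher in P-bodies (22.6% of all genes were), 2 lower (15.4%) and 10 did not pass, with a median of 0.14 beside -0.06 over all genes. Tnrc6a, a GW182 scaffold that AGO proteins recruit, was higher by 3.13 ± 0.27, and Tut4, the uridyltransferase that acts with LIN28A on pre-let-7, by 2.71 ± 0.21 (adjusted p = 0.000904 and 0.000687). Khsrp, a let-7 processing factor, and Trim25, an E3 ligase that acts with LIN28A, were lower (-1.25 ± 0.17 and -0.80 ± 0.15, adjusted p = 0.00383 and 0.0123). In primed cells 6 were higher and 7 lower (26.5% and 24.2% of all genes), Tnrc6a by 1.35 ± 0.07 and Tut4 by 0.85 ± 0.06 among the former. In MEFs 3 were higher and 11 lower (26.6% and 28.7% of all genes), with a median of -0.69 beside 0.03 over all genes, and there Tut4 was lower (-0.41 ± 0.14, adjusted p = 0.0365). The naive minus primed difference of Tut4 was 1.73 ± 0.22, one of 7 that were higher, and 0 were lower (13.9% and 11.4% of all genes). In day 3 control cells 0 were higher and 2 lower (0.196% and 0.45% of all genes) and in knockdown cells 0 and 10 (9.04% and 12.8%). In Ago2 KO cells 1 was higher (Tnrc6a, 2.21 ± 0.35) and 1 lower (Khsrp, -1.31 ± 0.30), against 5.47% and 1.05% of all genes. Khsrp was lower in the P-bodies of all 6 kinds of cells, from -1.08 in MEFs to -1.31 in Ago2 KO cells.

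Of 29 other known let-7 targets, 27 held a seed match in the 3′ UTR and 17 an 8mer. These match counts may follow in part from choosing known targets. In naive cells 28 of the 29 targets were tested. Of these 17 were higher in P-bodies and 1 lower (22.6% and 15.4% of all genes), with a median of 1.02 beside -0.06 over all genes. Zfp322a, a zinc finger gene, and Yod1, a deubiquitinase gene, led with 4.21 ± 0.30 and 4.18 ± 0.39, and Cdc34, a ubiquitin-conjugating enzyme gene, was lower (-0.50 ± 0.11). In primed cells 11 were higher and 9 lower (26.5% and 24.2% of all genes), with a median of 0.02. Onecut2, a transcription factor gene, was highest there among those at 10 CPM or more (2.002 ± 0.20), and Myc, the proto-oncogene, lowest (-2.12 ± 0.14). The naive minus primed difference was higher for 15 and lower for 2 of 29 (13.9% and 11.4% of all genes), that of Myc being 4.26 ± 0.51. That value rests on few naive reads, since 1233 of the 1312 Myc reads in the fit lay in primed libraries. In MEFs 8 of 27 tested were higher and 11 lower (median -0.31, beside 26.6% and 28.7% of all genes). In day 3 control cells the counts were 1 and 0 of 28 (0.196% and 0.45%), in knockdown cells 3 and 8 of 29 (9.04% and 12.8%) and in Ago2 KO cells 4 and 0 of 29 (5.47% and 1.05%). In the polysome comparison of control cells 5 of 29 were higher and 11 lower (18.8% and 24.1%). Zfp322a was higher in P-bodies of naive, primed, day 3 control, knockdown and Ago2 KO cells, at 4.21, 1.55, 0.99, 0.68 and 2.40.

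**Figure D5:**
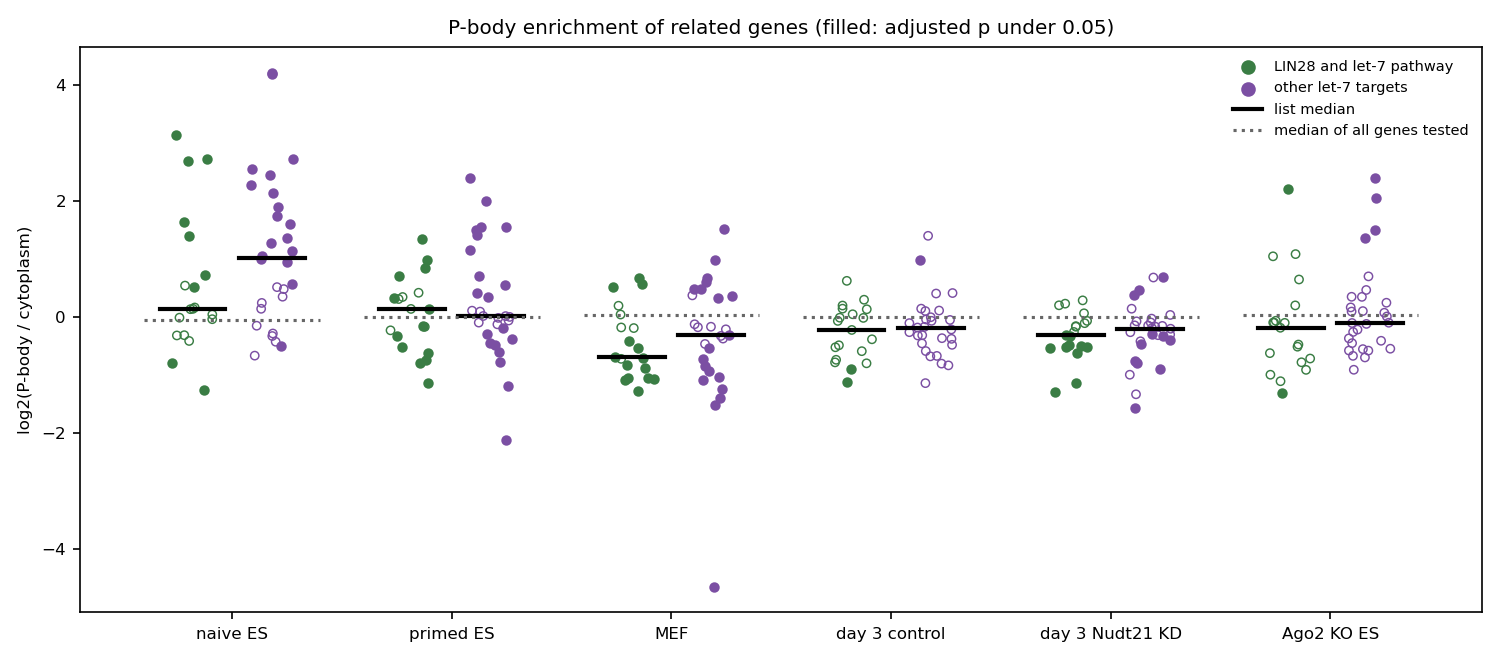
P-body enrichment, as the log2 ratio of P-body to cytoplasm, of 19 pathway genes (green) and 29 other let-7 targets (purple) in 6 kinds of cells. Points are genes, filled where the adjusted p was under 0.05, black bars are list medians and dotted lines the median of all genes tested. In naive cells the median of the other targets is 1.02, and in MEFs it is -0.31.

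The genes whose RNA levels ran closest to those of each gene were found by Pearson's r of log2(CPM + 1) over the 20 P-body and cytoplasm libraries, among 10253 genes at 10 CPM or more on average. The libraries share cell states, depth and preparation, so these values are descriptions. Lefty1 was closest to Lin28a (0.989) and 4930433N12Rik to Lin28b (0.984). Parp8 was closest to Hmga2 (0.978) and Tle4 to Trim71 (0.989). Ncoa3 was closest to Igf2bp1 (0.967) apart from Mir3063, which lies within it. Zfp111 was closest to Igf2bp2 (0.902), Trmo to Igf2bp3 (0.881), and Smg1 to Hmga1 (0.850) apart from its copy Hmga1b.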

How the data were processed

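Deposited tables held estimated counts per gene, not whole in part. For the 20 libraries of P-bodies and cytoplasm, SMART-Seq reads were aligned by the authors with HISAT2 to mm10 and counted over refGene exons with featureCounts, and the 12 polysome and total RNA libraries were quantified with salmon. The deposited table of the 4 Ago2 KO libraries is named as salmon counts, and its pipeline is otherwise not given in the sources used here. P-bodies were sorted from the cytoplasm of a preparation, and polysome-bound and total RNA came from the same lysates, per the methods. No source ties replicate numbers to preparations or lysates, so the main fits treated libraries as independent. 10 tables of the authors' DESeq2 comparisons (fold changes and p-values) were not used. Counts were rounded, genes with at least 10 summed reads kept, and each comparison fitted in edgeR 4.0.16 (TMM, quasi-likelihood test, Benjamini-Hochberg over all genes, threshold 0.05) under R 4.3.3. Differences between comparisons were interaction terms. Levels are CPM on TMM-scaled library sizes. Errors are SEs, with 2 libraries per group, or 3 for polysomes. The paper describes its sequencing replicates as biological. The labels do not say that libraries came from separate cultures, and p-values measure the spread between these samples. Exact 95% intervals and floors of 3 reads cover counting error only. Gene models came from GENCODE M21 and miRNAs from RefSeq, both on GRCm38. Scripts were tested on simulated data. Members and lists were chosen with earlier results of these data known. The rule for named genes took in all 8 genes. From the 2 further lists up to 2 called genes per direction with the largest change at 10 CPM or more are named, and Tut4 in primed cells and MEFs was added after its values were seen. Alternatives were DESeq2 1.42.0, its size factors, edgeR's expression filter, no filter, a replicate block, one fit of all groups and leaving out each library. Summing Hmga1 with Hmga1b was chosen after seeing the data.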

Additional observations from a re-analysis of the deposited data

Results flagged for a closer look

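The results flagged here are differences in P-body enrichment between cell states that passed the test of the difference itself. Between naive and primed ES cells the enrichment differed by 2.64 ± 0.55 for Lin28a, 3.08 ± 0.16 for Lin28b, 0.87 ± 0.12 for Igf2bp1 and 1.80 ± 0.15 for Igf2bp2, all higher in naive cells, and by -0.59 ± 0.14 for Igf2bp3. Between naive cells and MEFs it differed by 5.97 ± 0.66 for Lin28b, 1.70 ± 0.14 for Igf2bp1, 2.62 ± 0.19 for Igf2bp2 and -0.74 ± 0.14 for Hmga1. Between day 3 control cells and MEFs it differed by 0.74 ± 0.15 for Igf2bp1 and -1.48 ± 0.34 for Trim71. Adjusted p-values from edgeR ran from 1.2e-05 to 0.0176 over these 11 differences. The Lin28b value against MEFs rests on 3 reads in MEF P-bodies. Lin28a was at 4.82 without naive cytoplasm replicate 1. The calls of Igf2bp3, of Hmga1 and of both genes between day 3 control cells and MEFs were lost without some single libraries. Groups held 2 or 3 libraries, so no search for single outlying libraries was made.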

How the results depend on the processing

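Over the single values of the 8 genes, alternatives other than leaving out 1 library kept direction and call in 883 cases, gained a call in 29, lost one in 11 and turned the direction in 2. Both turns were the uncalled naive minus MEF difference of Igf2bp3, at 0.17 with no filter and 0.15 in one fit of all groups. Leaving out 1 library kept 645, gained 38, lost 50 and turned 34. The cause was not tested.

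Of the 8 genes, DESeq2, no filter and one fit of all groups called 2, 1 and 3 in day 3 control P-bodies and 2, 2 and 3 in total RNA on DDX6 loss, and DESeq2 and no filter called 2 each in Ago2 KO P-bodies. Whether replicate numbers pair the samples could not be settled. Same-numbered libraries correlated from -0.312 to 0.234 outside the Ago2 KO cells (0.583, a hint only). Between P-bodies and cytoplasm the correlation was 0.0631 in primed, 0.123 in day 3 control and 0.151 in knockdown cells. It was -0.0427 in naive cells and -0.0147 in MEFs. Of the 3-pair comparisons in no case did all libraries match their own number best. With the number as a replicate block the count was 3 in Ago2 KO P-bodies (Lin28b, Hmga2 and Igf2bp1, adjusted p = 0.000592, 1.4e-05 and 0.0114) and 0 in total RNA on DDX6 loss (Igf2bp1 at adjusted p = 0.0934), Hmga1 in MEF P-bodies had an adjusted p of 0.0615 and Hmga2 there one of 0.0377, and it changed no other call. Over all genes the block gave 802 in day 3 control P-bodies, 4178 in Ago2 KO P-bodies, 6 for the change in occupancy, 82 in total RNA on DDX6 loss and 1 for the knockdown minus control difference.

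Leaving out 1 library moved the count of called genes from 2 to 7 in naive P-bodies, 2 to 5 in MEFs, 0 to 5 in day 3 control cells, 1 to 4 in knockdown cells, 0 to 6 in Ago2 KO cells, 0 to 4 for total RNA on DDX6 loss, 0 to 4 for day 3 control minus MEF and 0 to 1 for knockdown minus control. Uncalled single values that turned ranged in naive P-bodies from -1.203 to 0.741 (Hmga2) and -0.048 to 0.14 (Igf2bp3), in primed P-bodies from -0.24 to 0.0137 (Igf2bp2), in MEFs from -0.24 to 0.0938 (Igf2bp3), in day 3 control cells from -0.32 to 0.11 (Hmga1), in knockdown cells from -0.0819 to 1.08 (Lin28b) and -0.0994 to 0.033 (Hmga2), and in Ago2 KO cells from -0.12 to 0.18 (Igf2bp2). For the change in occupancy they ranged from -0.0303 to 0.0865 (Lin28a), -0.086 to 0.134 (Hmga2), -0.0947 to 0.0113 (Igf2bp2) and -0.0771 to 0.0311 (Igf2bp3). For naive minus primed they ranged from -0.000128 to 0.21 (Hmga1) and -0.62 to 0.0712 (Trim71), and for naive minus MEF from -1.698 to 0.263 (Hmga2), -0.17 to 0.31 (Igf2bp3) and -0.19 to 0.50 (Trim71). For day 3 control minus MEF they ranged from -2.02 to 2.55 (Lin28b) and -0.14 to 0.41 (Hmga2), for knockdown minus control from -0.0982 to 0.0152 (Igf2bp2) and for naive against primed cytoplasm from -0.0645 to 0.0149 (Hmga1).

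Over all genes, counts that moved by more than 1.5 times were, beside 102 in day 3 control P-bodies, 2105 in DESeq2, 202 with edgeR's expression filter, 1940 with no filter and 3308 in one fit of all groups. Beside 1095 in Ago2 KO P-bodies they were 1731 in DESeq2, 716 with its size factors and 2643 with no filter. Beside 509 in total RNA they were 832, 863 and 1138 in DESeq2, with no filter and in one fit of all groups. One fit of all groups gave 5128 beside 8209 in primed P-bodies, 2100 beside 3501 in knockdown P-bodies and 4877 beside 7934 in knockdown cytoplasm. Beside 0 for the change in occupancy they were 4 in DESeq2 and 16 with no filter, and beside 2 for knockdown minus control 26 and 62. Low reads limit Lin28a in the naive, MEF, day 3 and Ago2 KO fractions and Lin28b in MEFs and day 3 cells.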

Other observations

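let-7 precursor genes drew few reads. All 12 had 0 reads in the polysome and Ago2 KO tables. Over the 20 P-body and cytoplasm libraries Mirlet7i drew 63 reads in 14 libraries, Mirlet7d 59 in 9, Mirlet7a-1 15.5 in 6, Mirlet7f-1 13.5 in 4, Mirlet7c-2 8.5 in 7, Mirlet7b 7.5 in 5 and Mirlet7a-2 2 in 2, and the other 5 drew 0. The highest in any library was 26 reads, for Mirlet7d. In MEFs 3 of the 12 had enough reads to be tested in edgeR. Mirlet7d (40 reads) and Mirlet7f-1 (11 reads) were higher in P-bodies (adjusted p = 0.0169 and 0.0494), and Mirlet7i (36 reads) did not pass (0.156). Of all genes 26.6% were higher and 28.7% lower there. These calls rest on few reads in the P-body group that held lung epithelial markers. They were not checked by leaving out single libraries.

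The LIN28 genes stood at unlike levels in the naive ES cells of the 3 tables, which were prepared and normalized apart, so the values carry no test. Lin28a was at 47.4 to 61.6 CPM in polysome and total RNA libraries, at 0.23 to 8.9 CPM in naive P-bodies and cytoplasm, and at 0.902 to 2.98 CPM in Ago2 KO cells. Lin28b ran the other way for the P-bodies, at 3.74 to 7.31 CPM in polysome and total RNA libraries, 2.82 to 38.1 CPM in naive P-bodies and cytoplasm and 6.77 to 16.2 CPM in Ago2 KO cells.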
